A study of Homo sapiens with 2 samples.

Results

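The genes described here are 10 genes of the transition between epithelial and mesenchymal cell states, taken by name from a table of 58174 Ensembl gene identifiers. They are the cadherin genes CDH1 and CDH2, the epithelial adhesion gene EPCAM, the vimentin gene VIM, the repressor genes ZEB1, ZEB2, SNAI1 and SNAI2, and the epithelial regulators ESRP1 and GRHL2. All 10 were found in the table, and 9 of them had a mean of 1 TPM or more over the libraries, as did 15008 genes of the table. TPM is a relative transcript abundance that accounts for transcript length, so that levels of different genes can be compared within a library. The cells were PC3, an established human prostate cancer cell line in culture. There were 2 libraries, 1 per group: PC3 cells transfected with control siRNA (small interfering RNA) and PC3 cells transfected with POH1 siRNA. PSMD14 is the gene for POH1, a deubiquitinase that sits in the lid of the proteasome. This targeted gene was at 50.9 TPM in control cells and 35.1 TPM in POH1 siRNA cells. Its difference was -0.52 on the log2(TPM + 1) scale, which is within 1.5-fold, and -0.24 once a trend with GC content was removed. The labels used here give neither the siRNA sequences nor the dose or time. With 1 library per group there is no replicate error, so no difference below has a test, and the read depth is unknown because TPM does not keep it.

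Epithelial cells adhere to each other through E-cadherin, the product of CDH1, and through EpCAM. GRHL2 encodes a transcription factor that activates epithelial genes, and ESRP1 encodes a splicing factor that produces the epithelial forms of many messages. ZEB1, ZEB2, SNAI1 (Snail) and SNAI2 (Slug) encode zinc finger repressors that bind E-box sequences in epithelial gene promoters. Mesenchymal cells typically carry N-cadherin, from CDH2, and the intermediate filament protein vimentin. Carcinoma cells can also hold both sets of genes at once. In epithelial cells the microRNAs of the miR-200 family hold down ZEB1 and ZEB2, and the ZEB proteins in turn repress the miR-200 genes.

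The miR-200 family and its sites in ZEB1 and ZEB2 are shown because both ZEB genes were the lowest of the 10 in these cells. The family falls into 2 groups that differ at 1 base of the seed, bases 2 to 8, which is in capitals in the mature sequences (RefSeq, GRCh38.p14):
hsa-miR-200b-3p: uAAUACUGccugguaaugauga
hsa-miR-200c-3p: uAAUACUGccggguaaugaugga
hsa-miR-429: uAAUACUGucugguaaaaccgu
hsa-miR-200a-3p: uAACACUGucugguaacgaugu
hsa-miR-141-3p: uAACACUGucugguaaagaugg

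The letters that pair with these seeds, CAGTATT for the first 3 and CAGTGTT for the other two, were searched on the sense strand of the longest annotated 3′ untranslated region (UTR) of each ZEB gene in GENCODE 29 (GRCh38). The ZEB1 region of 2549 bases held CAGTATT 6 times and CAGTGTT 3 times. Of 4330 other genes with a region at least as long, read over the same length, 27.1% held CAGTATT at least once and 30.3% held CAGTGTT. The ZEB2 region of 5370 bases held CAGTATT 5 times and CAGTGTT 4 times, and over that length 48.4% and 51.7% of 1062 other genes held at least 1 match. One site of each kind from each gene follows, with the seed match in capitals. They lie in the 3′ UTR exon at chr10:31527621-31527644 and chr10:31528785-31528808 on the plus strand for ZEB1, and at chr2:144389048-144389071 and chr2:144389232-144389255 on the minus strand for ZEB2:
ZEB1, CAGTATT: gttttatcttatCAGTATTatcac
ZEB1, CAGTGTT: gatttgatttaaCAGTGTTatgtt
ZEB2, CAGTATT: actaccatacatCAGTATTtttat
ZEB2, CAGTGTT: aaaaattttgtaCAGTGTTaaggc
A match is a description of the sequence. Mature microRNAs were not measured in these libraries.

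Of the epithelial members, CDH1 (ENSG00000039068) was at 111 TPM in control cells and 129 TPM in POH1 siRNA cells. This placed it above 91.1% of the measured genes in the control library and 91.8% in the other. EPCAM (ENSG00000119888) was at 124 and 141 TPM, a like level. ESRP1 (ENSG00000104413) was at 38.1 and 45.6 TPM, and GRHL2 (ENSG00000083307) was at 14.99 and 15.4 TPM. The TPM ratios of the POH1 siRNA library to the control were 1.17 for CDH1, 1.14 for EPCAM, 1.20 for ESRP1 and 1.03 for GRHL2. Both adhesion genes were therefore abundant messages in both libraries, and their regulators were present at moderate levels. The table gives 1 value per gene, so the splice forms that ESRP1 controls cannot be seen in it.

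Of the mesenchymal structural members, VIM (ENSG00000026025) was the most abundant of the 10 genes, at 482 TPM in control cells and 421 TPM in POH1 siRNA cells. It lay above 98.2% and 97.8% of measured genes. CDH2 (ENSG00000170558) was at 19.4 and 18.2 TPM. VIM and CDH2 were the 2 members with a lower value in the POH1 siRNA library, with TPM ratios of 0.873 and 0.936. Bulk libraries do not tell more cells with a message from more message per cell, nor whether CDH1 and VIM came from the same cells. VIM message was 4.35-fold the CDH1 message in the control library and 3.25-fold in the POH1 siRNA library. Among the cadherins the order was the other way, with CDH1 at 5.71-fold the CDH2 level in the control library and 7.12-fold in the POH1 siRNA library. P-cadherin message, from CDH3, stood at 80.7 and 101 TPM, also above CDH2 (CDH3 was named with its values in view).

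Of the repressors, SNAI2 (ENSG00000019549) was the highest, at 9.76 TPM in control cells and 12.7 TPM in POH1 siRNA cells. SNAI1 (ENSG00000124216) was at 7.25 and 8.05 TPM. ZEB1 (ENSG00000148516) was at 0.944 and 1.98 TPM, above 2.47% of measured genes in the control library and 13.5% in the POH1 siRNA library. ZEB2 (ENSG00000169554), at 0.308 and 0.408 TPM, was under the filter and enters no count below. The control library thus held both Snail family messages at levels near the middle of the measured genes and both ZEB messages near the bottom. ESRP1 was at 40.3-fold the ZEB1 level in the control library and 23.05-fold in the POH1 siRNA library, and GRHL2 at 15.9-fold and 7.79-fold. These folds divide by the low ZEB1 values, whose precision is unknown without read depth. Between libraries the TPM ratio was 2.09 for ZEB1, beside 1.20 for ESRP1 and 1.03 for GRHL2.

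**Figure D1:**
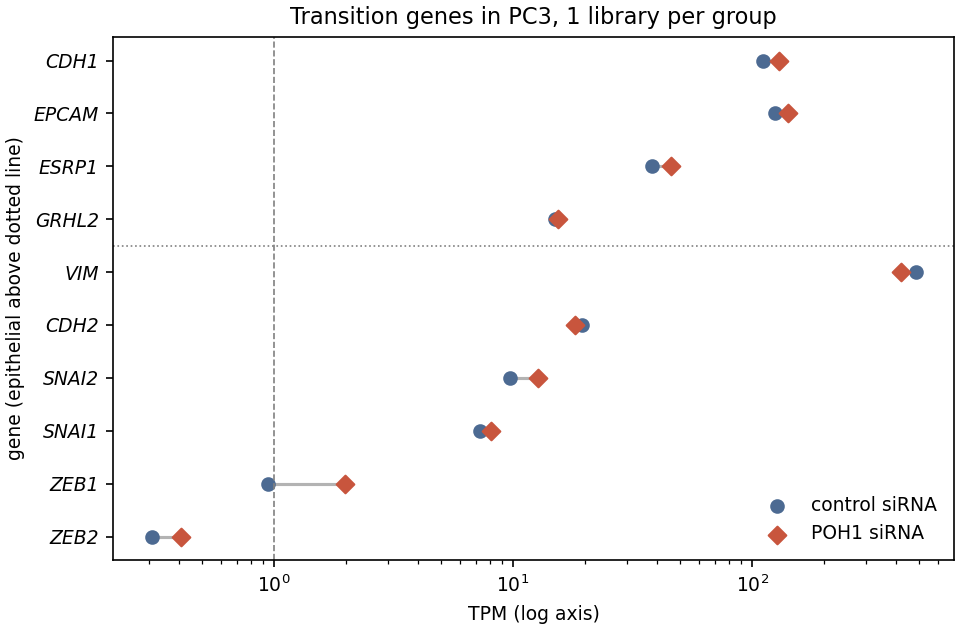
TPM (log axis) of the 10 genes in the control siRNA library (circles) and the POH1 siRNA library (diamonds), 1 library each, with a dashed line at 1 TPM and the epithelial genes above the dotted line. VIM, EPCAM and CDH1 are the 3 most abundant genes in both libraries, ZEB1 and ZEB2 are the lowest, and ZEB1 shows the widest gap between libraries.

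In order of level, the control library ran from VIM through EPCAM, CDH1, ESRP1, CDH2, GRHL2, SNAI2, SNAI1 and ZEB1 to ZEB2, and the POH1 siRNA library gave this order as well. Whether neighbours in the order differ beyond replicate spread cannot be told with 1 library per group. EPCAM and CDH1 were the closest neighbours at the top (124 and 111 TPM), and SNAI2 and SNAI1 were close at the lower end (9.76 and 7.25 TPM).

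The difference between libraries was computed on log2(TPM + 1), as POH1 siRNA less control siRNA. On this scale 1 of the 9 measured members, ZEB1, was at least 1.5-fold higher in the POH1 siRNA library. The other 8 lay within 1.5-fold, and 0 were 1.5-fold lower. Of all 15008 measured genes, 10.2% were at least 1.5-fold higher and 8.88% at least 1.5-fold lower, so the share of the members was near the background. No member reached 2-fold on this scale in either direction, against 2.15% of all genes higher and 2.93% lower. The median log2 difference of the 9 members was 0.19, beside 0.12 for all measured genes.

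ZEB1 had a log2 difference of 0.61, just past the 1.5-fold limit of 0.58, and a TPM ratio of 2.09 (0.944 and 1.98 TPM). The pseudocount of 1 makes the log2 difference smaller than the TPM ratio for a gene this low. Of all measured genes, 9.02% had a higher difference than ZEB1, and of the 2081 genes with a mean of 1 to 2 TPM, 12.2% were at least 1.5-fold higher. ZEB1 lay within 1.5-fold with a pseudocount of 5 (0.23) and when the libraries were scaled to a median log2 ratio of 0 (0.52) or by a trimmed mean (0.53). ZEB1-AS1, which shares 366 exon bases with ZEB1 on the opposite strand, was at 1.58 and 1.67 TPM. The use of strand is not stated, so reads from these 2 genes may not have been told apart.

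SNAI2 had the next highest log2 difference, 0.35, followed by ESRP1 at 0.25, CDH1 at 0.22, EPCAM at 0.19, SNAI1 at 0.13 and GRHL2 at 0.04. CDH2 was at -0.09 and VIM at -0.20. The 4 epithelial members spanned 0.04 to 0.25, and the measured mesenchymal members and repressors spanned -0.20 to 0.61. The epithelial values therefore lay inside the range of the others. The value for GRHL2 was below 0 under the 3 scaling alternatives (-0.03 to -0.09). VIM shares 641 exon bases with VIM-AS1 on the opposite strand. VIM-AS1 was at 1.19 and 0.645 TPM, a small level beside the 482 and 421 TPM of VIM.

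**Figure D2:**
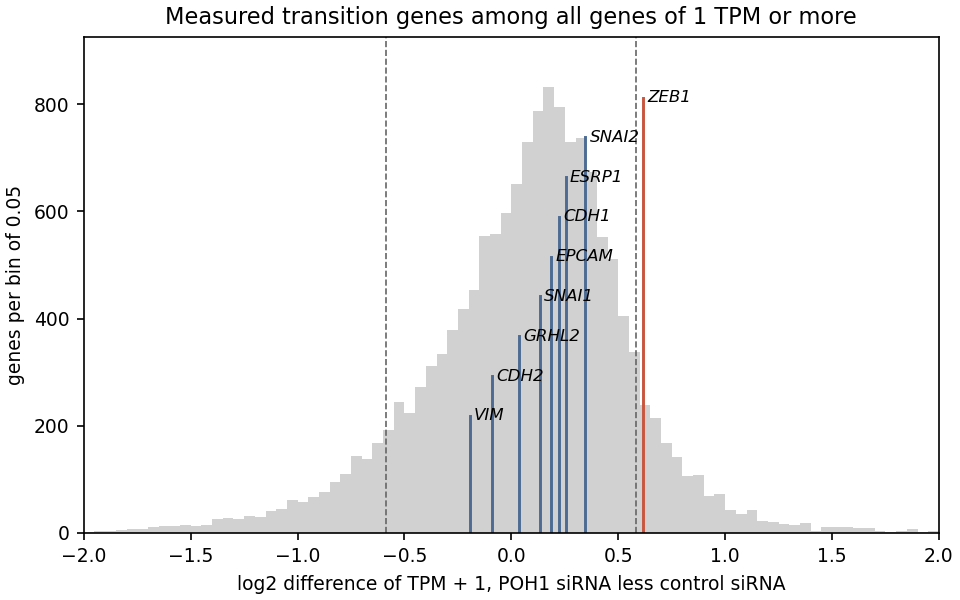
Number of genes in bins of 0.05 of the log2 difference of TPM + 1 (POH1 siRNA less control siRNA) for the 15008 genes whose mean was at least 1 TPM, with the far tails not drawn, with the 9 measured transition genes as vertical lines whose height has no meaning. Dashed lines mark 1.5-fold, and ZEB1 at 0.61 is the single member outside them.

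The log2 difference of genes in these libraries moved with the GC content of their transcripts. Over the 10114 genes whose mean was at least 5 TPM, which are not independent replicates, the Spearman correlation was 0.46. ZEB1, SNAI2 and ESRP1 had the lowest GC contents of the 10 genes, 43.0%, 42.2% and 42.6%, and genes near them in GC content had median log2 differences of -0.24, -0.22 and -0.22. VIM and SNAI1 had the highest, 52.2% and 58.2%, where the medians were 0.14 and 0.26. With this trend subtracted and the overall median added back, 3 members lay past 1.5-fold, all higher: ZEB1 at 1.00, SNAI2 at 0.71 and ESRP1 at 0.62. EPCAM was then at 0.44, CDH1 at 0.29, CDH2 at 0.15, GRHL2 at 0.14, SNAI1 at 0.02 and VIM at -0.19. CDH2 took the opposite sign under this adjustment, and VIM remained the lowest of the 9. The trend was set by the genes whose mean was at least 5 TPM, and ZEB1, with a mean of 1.46 TPM, lies outside them. The part of GC content in the deposited differences was not tested.

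**Figure D3:**
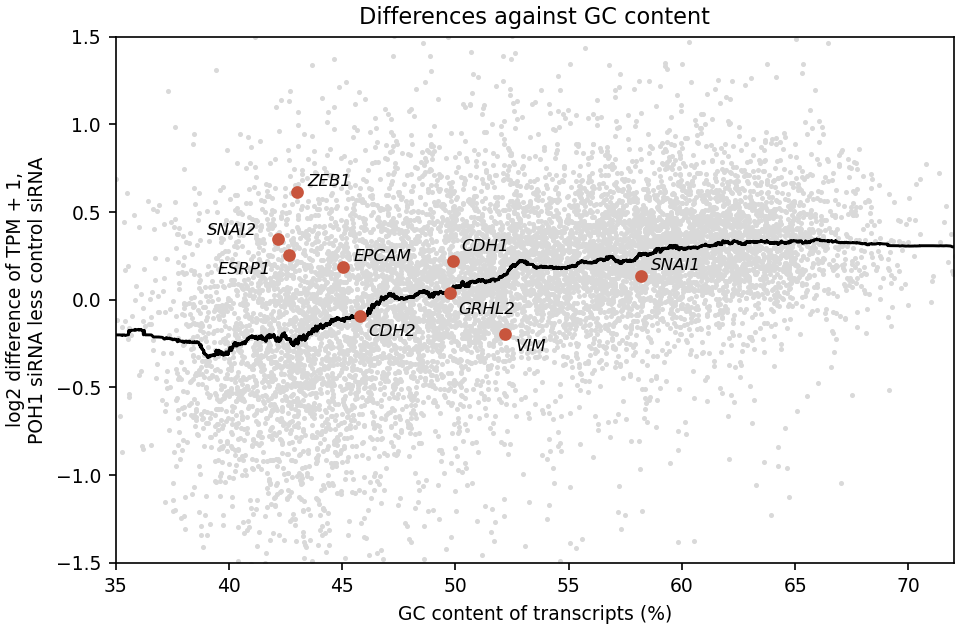
Log2 difference of TPM + 1 (POH1 siRNA less control siRNA) against the GC content of transcripts in percent, for genes whose mean was at least 5 TPM (grey points), with the running median (black line) and the 9 measured transition genes (red points); genes beyond the axis limits are not drawn. ZEB1, SNAI2, ESRP1 and EPCAM lie above the line at GC contents up to 45.1%, as does CDH1 at 49.9%. CDH2 and GRHL2 lie on the line, and VIM and SNAI1 lie below it.

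Other epithelial genes were also abundant. Of 3 lists of epithelial genes with 59 genes in all, 54 had a mean of 1 TPM or more. In the control library the keratin genes KRT7 and KRT19 were at 2907 and 1499 TPM, and KRT8, which encodes a keratin of simple epithelia, was at 517 TPM, close to VIM. SPINT2 and ST14, a protease inhibitor and the membrane protease matriptase, were at 422 and 219 TPM. ELF3, an epithelial ETS factor, was at 58.1 TPM, and ESRP2, the paralogue of ESRP1, at 27.2 TPM. Exons of KRT7 overlap those of KRT7-AS (38.0 TPM) and KRT87P (243 TPM) on the opposite strand, exons of KRT8 overlap those of KRT18 (455 TPM), and ELF3 overlaps ELF3-AS1 (7.54 TPM).

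Of the 54 measured epithelial genes, 5 (9.26%) were at least 1.5-fold higher in the POH1 siRNA library, beside 10.2% of all genes, and none was 1.5-fold lower, beside 8.88% of all genes. The number higher was 3 with either the median or the trimmed mean scaling and 7 with the GC trend removed, and none was lower. Their median log2 difference was 0.33, beside 0.12 for all genes, and 39 of the 54 lay above the median of all genes. Their median GC content was 57.0%, beside 51.0% for all genes, and with the GC trend removed the medians were 0.25 and 0.15. EVPL, which encodes the desmosomal plaque and cornified envelope protein envoplakin, had the largest difference, 2.95-fold higher (12.3 and 36.3 TPM). The other 4 were PRSS22, a serine protease gene (54.8 and 89.8 TPM), FOXA1, which encodes a pioneer factor of luminal cells (30.8 and 52.3 TPM), RBM47, which encodes an RNA-binding protein (3.03 and 6.42 TPM), and TFAP2A, which encodes the AP-2 alpha factor (30.1 and 45.7 TPM). Within 1.5-fold were KRT7 (3560 TPM in the POH1 siRNA library), KRT19 (1734 TPM), KRT8 (556 TPM), the desmosomal plakophilin gene PKP3 (106 and 147 TPM), the cingulin gene CGN (21.5 and 31.6 TPM), the laminin gene LAMB3 (483 and 683 TPM), KLF5 (21.7 and 31.5 TPM) and ESRP2 (27.2 and 31.6 TPM).

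The promoters of epithelial polarity and trafficking genes are shown for the E-box that ZEB and Snail proteins bind. Whether the levels of these genes depend on the repressors was not tested. CRB3, which encodes an apical polarity protein, was at 69.7 and 93.7 TPM, RAB25, an epithelial small GTPase gene, at 84.0 and 70.2 TPM, and AP1M2, an epithelial clathrin adaptor subunit gene, at 112 and 121 TPM. The motif CAGGTG was searched on both strands, where it reads CACCTG on the other, in the 250 bases before each start in RefSeq (GRCh38.p14). It was found in 17.5% of 35116 promoters. It was found in 6 of 8 promoters of the polarity and protease list and in 11 of 23 of the adhesion and keratin list. In the epithelial transcription and splicing list it was in 4 of 19 (21.1%), and in the mesenchymal list in 5 of 28 (17.9%). Both were near the share of all promoters. These counts are of starts, so they are not shares of the listed genes. Overlapping windows of 1 gene, as for MUC1 and LOX, were each counted. Not all of the 14 polarity and protease genes and 27 adhesion and keratin genes had an entry. ST14 and KRT7, for example, had none. CRB3 held 5 matches, AP1M2 and MYO5B 3 each, PATJ 2, and RAB25 and SPINT1 1 each. CRB3, AP1M2 and RAB25 were named here after the motif counts were seen. Promoter entries were matched for CDH2, VIM, ZEB1 and ZEB2 among the 10 members. The VIM, ZEB2 and both CDH2 entries held no match, and 2 of the 7 ZEB1 entries did. The sequences before the starts of AP1M2 (chr19:10587316-10587562, minus strand) and RAB25 (chr1:156060910-156061159, plus strand) follow, with the motif in capitals:
AP1M2: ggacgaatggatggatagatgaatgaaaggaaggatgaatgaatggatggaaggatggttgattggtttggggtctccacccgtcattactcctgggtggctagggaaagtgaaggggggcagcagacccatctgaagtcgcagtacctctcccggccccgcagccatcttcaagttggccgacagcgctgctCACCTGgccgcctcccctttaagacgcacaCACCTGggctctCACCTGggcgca
RAB25: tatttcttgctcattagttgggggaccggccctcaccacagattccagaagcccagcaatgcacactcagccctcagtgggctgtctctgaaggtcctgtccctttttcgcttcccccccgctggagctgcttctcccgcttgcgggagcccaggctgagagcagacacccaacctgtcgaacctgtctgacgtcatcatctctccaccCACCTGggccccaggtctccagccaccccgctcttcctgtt
Binding was not measured, and a match in these windows is not evidence of it.

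Mesenchymal genes were present beside the epithelial ones, with gaps. Of 28 genes of the mesenchymal cytoskeleton and matrix, 23 had a mean of 1 TPM or more. In the control library the collagen VI genes COL6A1 and COL6A2 were at 1245 and 906 TPM, and FN1, the fibronectin gene, was at 276 TPM. The fibrillar collagen genes COL1A2 and COL3A1 were at 0.109 and 0.231 TPM, MMP2 at 0.0293 TPM, and POSTN was listed at 0 in both libraries. FN1 and these 4 genes were named with their values in view. Of the 23, 3 were at least 1.5-fold higher in the POH1 siRNA library and 1 was 1.5-fold lower, and with either the median or the trimmed mean scaling 2 were higher and 1 lower. The shares of all genes were 10.2% higher and 8.88% lower. The median log2 difference was 0.29, beside 0.12 for all genes (0.17 and 0.15 with the GC trend removed), and 16 of the 23 lay above the median of all genes, so both the epithelial and the mesenchymal lists had medians above it. CDH11, the cadherin of mesenchymal cells, was 2.08-fold higher (13.9 and 28.9 TPM), which placed it above CDH2 in the POH1 siRNA library but below it in the control library. TAGLN, the transgelin gene, was at 6.06 and 11.9 TPM, and COL1A1 at 30.9 and 47.8 TPM. TAGLN overlaps PCSK7 (34.3 and 46.5 TPM) on the opposite strand by 446 bases. S100A4, which encodes a calcium-binding protein linked to motility, was 1.52-fold lower (104 and 68.1 TPM).

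Among other transcription factors of the transition, TWIST1 was at 9.72 and 11.1 TPM, close to SNAI2. ID1, which encodes an inhibitor of basic helix-loop-helix factors, was at 504 and 570 TPM, and the chromatin protein gene HMGA2 at 127 and 138 TPM. Of 16 measured genes of this list, 3 were at least 1.5-fold higher and 0 were 1.5-fold lower, beside 10.2% and 8.88% of all genes. The median log2 difference was 0.26, beside 0.12 for all genes. With the GC trend removed 4 were higher and 0 lower, and the medians were 0.14 and 0.15. TCF4, whose product E2-2 binds E-boxes, was the farthest apart, at 0.591 and 3.74 TPM, a ratio of 6.33 from a low level. ETS1 was at 19.1 and 30.6 TPM and FOXC1 at 3.48 and 5.81 TPM. With either scaling, TCF4 alone of these 3 was still at least 1.5-fold higher.

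Proteins that act with the repressors were measured as messages too. Of 13 corepressor genes, EED was at least 1.5-fold higher (3.72 and 6.15 TPM) and 2 were 1.5-fold lower, beside 10.2% and 8.88% of all genes. The list median was 0.13, beside 0.12 for all genes. EED was within 1.5-fold under each of the 3 scaling alternatives. The lower genes were the deacetylase gene HDAC2 (12.7 and 6.96 TPM) and EZH2, the methyltransferase of Polycomb (28.4 and 17.7 TPM). Both were within 1.5-fold once the GC trend was removed, while EED (0.95) and SUZ12 (0.67) were then past 1.5-fold, both higher. HDAC1, at 151 and 154 TPM, was the more abundant deacetylase of the list. Snail is an unstable protein that is phosphorylated by the kinase GSK3B and then degraded by the proteasome. Of 13 measured genes for its turnover and control, 1 (7.69%) was at least 1.5-fold higher and none was 1.5-fold lower. The shares of all genes were 10.2% and 8.88%, so this count was not above the background. The median of this list was 0.17, beside 0.12 for all genes. The higher gene was the kinase gene LATS2 (3.44 and 6.28 TPM). With a pseudocount of 5 LATS2 was within 1.5-fold (0.42). Under the 3 scaling alternatives and with a pseudocount of 0.1, COPS2, a signalosome subunit gene (5.23 and 3.40 TPM), was past 1.5-fold lower (-0.59 to -0.61). GSK3B was at 25.2 and 33.0 TPM and the ligase adaptor gene BTRC at 6.63 and 4.61 TPM, both within 1.5-fold. With the GC trend removed LATS2 was within 1.5-fold (0.56), and GSK3B (0.62) and the ligase gene FBXW7 (0.66) were past it, both higher. Snail and Slug proteins were not measured, so their levels after POH1 siRNA cannot be read from these messages.

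Cadherins hold the actin cytoskeleton through catenins. PC3 cells are known to lack alpha-E-catenin because of a deletion in its gene, CTNNA1, and CTNNA1 was at 3.01 TPM in control cells and 2.48 TPM in POH1 siRNA cells. CTNNB1, the beta-catenin gene, was at 111 and 95.5 TPM, a level 36.8-fold and 38.6-fold that of CTNNA1. JUP, the plakoglobin gene, was at 191 and 214 TPM, and CTNND1, the p120 catenin gene, at 28.1 and 30.7 TPM. Of 13 measured cadherin and catenin partners, 3 were at least 1.5-fold higher and 2 were 1.5-fold lower, beside 10.2% and 8.88% of all genes. The list median was 0.17, beside 0.12 for all genes. With either scaling 2 were higher and 2 lower. VCL, which encodes the actin-binding junction protein vinculin, was 2.49-fold higher (94.3 and 235 TPM). VCL shares 1109 exon bases with the opposite-strand gene AP3M1 (60.5 and 42.95 TPM), so its value is uncertain without strand. AFDN, the afadin gene, was at 10.4 and 19.6 TPM. CTNNAL1, which encodes an alpha-catenin-like protein, was 2.00-fold lower (24.7 and 12.3 TPM), and NECTIN3 was at 2.42 and 1.04 TPM. With the GC trend removed both were within 1.5-fold (-0.58 and -0.39), and the list had 3 genes higher and 0 lower.

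Of 12 measured genes for other intermediate filaments and for proteins that bind filaments, 2 were at least 1.5-fold higher and 0 were lower by as much, and the median log2 difference was 0.35. The share past the upper limit was thus 16.7%, beside 10.2% of all genes. Of all genes 8.88% lay past the lower limit, and their median was 0.12. With either scaling none of the list was higher and 1 was lower, and with the GC trend removed 1 was higher and 1 lower. The median GC content of the list was 60.4%, beside 51.0% for all genes. After removal of the GC trend the list median was 0.24, beside 0.15 for all genes. PLEC, which encodes the linker protein plectin, was at 214 and 330 TPM, and KRT6A at 17.9 and 27.5 TPM. KRT81, a hair keratin gene, was the most abundant gene of all lists at 6068 and 6832 TPM, and its value is uncertain because hair keratin genes are near-identical copies.

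**Figure D4:**
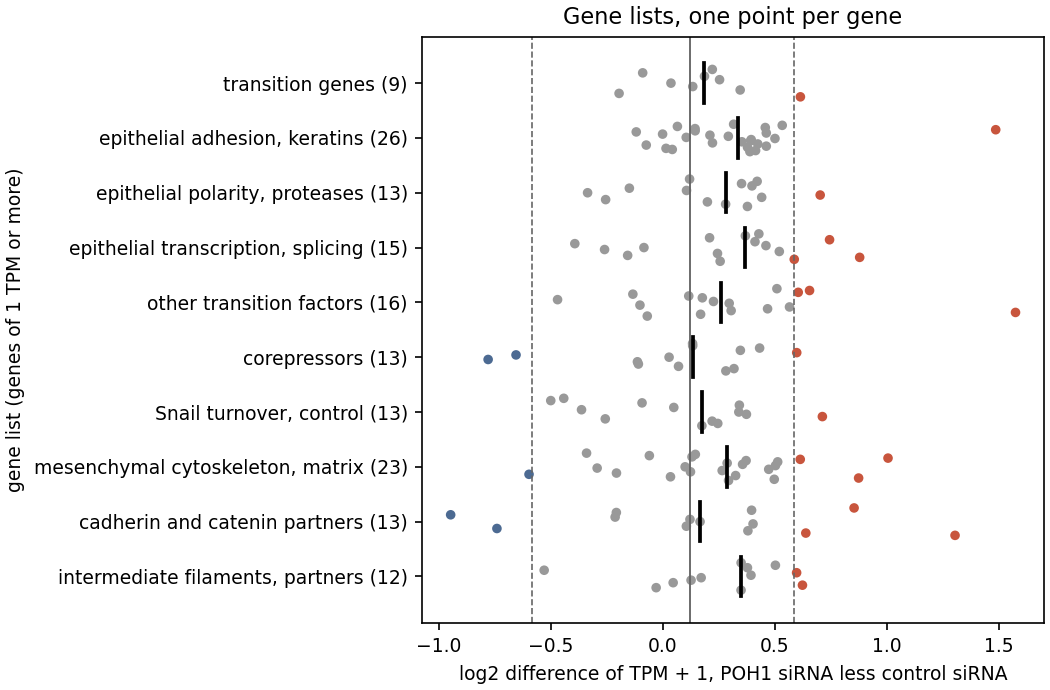
Log2 difference of TPM + 1 (POH1 siRNA less control siRNA) for each gene whose mean was at least 1 TPM in the transition genes and 9 related lists, with the number of genes in brackets, thick bars at list medians, a solid line at the median of all genes (0.12) and dashed lines at 1.5-fold. Red points are at least 1.5-fold higher and blue points at least 1.5-fold lower, and most points of every list lie between the dashed lines.

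For the microRNAs shown above, and for miR-205, the table holds entries at the level of the gene or hairpin. MIR205HG, the host transcript of miR-205, was at 24.8 and 24.1 TPM, and the hairpin entry MIR205 at 4.24 and 4.24 TPM. The host transcript of miR-200c and miR-141, MIR200CHG, was listed at 0 in both libraries. The hairpin entry MIR200C was also at 0 in both, and MIR141 was at 0.0154 and 0 TPM. The hairpin entries MIR200B, MIR200A and MIR429 were at 2.62 and 6.92 TPM, 0.785 and 2.65 TPM, and 15.8 and 12.5 TPM. Of 5 measured entries, MIR200B and MIR200A were at least 1.5-fold higher and 0 were lower by as much. The shares of all genes were 10.2% higher and 8.88% lower. A hairpin is very short, so few reads decide its TPM, and such an entry does not measure the mature microRNA.

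The identity of the cells was checked on marker lists. Of 9 matched luminal prostate markers, 5 reached a mean of 1 TPM, among them HOXB13, a prostate lineage factor gene (102 and 104 TPM), SLC45A3 (25.2 and 27.5 TPM), TMPRSS2 (9.89 and 12.9 TPM) and ACP3 (1.01 and 1.13 TPM). KLK2 and KLK3 were listed at 0 in both libraries. Of 9 fibroblast markers, 1 reached a mean of 1 TPM, COL1A1, which made up 30.9 of the summed 31.5 TPM in the control library and 47.8 of 48.1 TPM in the other. THY1 was listed at 0 in both libraries. Of 6 basal prostate markers, KRT15 (30.9 and 38.6 TPM) and ITGA2 (17.2 and 17.5 TPM) reached a mean of 1 TPM, and of 6 neuroendocrine markers ENO2 (62.2 and 84.0 TPM) and SYP (1.10 and 1.07 TPM) did. The 6 leukocyte markers summed to 3.38 and 3.67 TPM, with PTPRC at 0 and 0.0568 TPM, and the 5 endothelial markers to 6.67 and 5.14 TPM. PECAM1 was the highest endothelial marker, at 4.90 and 3.88 TPM. The fibroblast markers other than COL1A1 were thus at 0.231 TPM (COL3A1) or less in both libraries, beside 482 and 421 TPM for VIM.

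Among the genes of all lists, the pair of values closest to that of each member was found as the distance of log2(TPM + 1) over the 2 libraries. AP1M2 was closest to CDH1 (distance 0.09), HMGA2 to EPCAM (0.05), KRT18 to VIM (0.14), TPM2 to ESRP1 (0.03), PALS1 to GRHL2 (0.13), TMPRSS2 to SNAI2 (0.03), COL5A1 to SNAI1 (0.17), ITGA2 to CDH2 (0.17) and FBN1 to ZEB1 (0.23). With 2 libraries this is likeness of level more than of pattern.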

How the data were processed

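RNA of PC3 cells was sequenced from 2 libraries, 1 per group. RNA was extracted with Trizol and mRNA libraries were made for Illumina sequencing, per the labels' protocols. The deposited values are TPM per gene, computed by the authors. The submitters' processing notes name CASAVA, HISAT2 and the build hg19. The sources used here do not give versions, annotation, the TPM tool, strand use or depth.

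Symbols were taken from a name table by Ensembl identifier (57392 of 58174 matched). One listed symbol, DUB3, was not matched. Gene types, GC content, UTRs and exon overlap came from GENCODE 29, which annotates GRCh38, so printed coordinates are of GRCh38 and are not those of the authors' alignment. Differences are log2(TPM + 1), POH1 siRNA less control, over genes whose mean was at least 1 TPM. The GC trend is the running median over the 400 genes nearest in GC content, among genes whose mean was at least 5 TPM. The calculations (Python 3.11.15, numpy 2.4.6, pandas 2.3.3) were tested on simulated data. No test between groups was made.

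Members, lists and alternatives were chosen with earlier results of these data known. Named by rule were the members, PSMD14, 6 genes whatever their size (CTNNA1, CTNNB1, CTNND1, ESRP2, TWIST1 and KRT8), and from each list the 4 genes with the largest difference and the 2 most abundant; not all of them are printed. Other genes were named after their values were seen, such as those given as fibroblast, leukocyte and prostate markers.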

Additional observations from a re-analysis of the deposited data

How the results depend on the processing

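The median log2 difference of the measured members stayed above 0 and under 1.5-fold under all 9 alternatives (0.05 to 0.29). The count of members past 1.5-fold, 1 as reported, was 0 with a pseudocount of 5, with a filter at 5 TPM, and when scaled to a median log2 ratio of 0 or by a trimmed mean, and 3 with GC adjustment. The count past 2-fold, 0 as reported, was 1 with GC adjustment. With a filter at 5 TPM, ZEB1 was not measured. Of all genes, 2868 lay past 1.5-fold, but 1304 with a pseudocount of 5 and 1807 with a filter at 5 TPM. Past 2-fold were 762 genes, but 1321 with a pseudocount of 0.1, 290 with one of 5 and 476 with a filter at 5 TPM. Of genes past 1.5-fold, 53.5% were higher, but 33.7% with median scaling, 35.4% with a trimmed mean and 71.0% with GC adjustment; past 2-fold these shares were 42.4%, 27.7%, 28.8% and 62.9%. Of the 149 measured genes of the 10 pathway lists, 25 lay past 1.5-fold (20 higher, 5 lower). The shares were 13.4% higher and 3.36% lower, beside 10.2% and 8.88% of all genes. With a pseudocount of 5 the count was 11 (10 higher, 1 lower). The split was 11 higher and 7 lower with median or trimmed mean scaling, and 24 higher and 2 lower with GC adjustment. Median scaling lowers log2 ratios by 0.14. No paired analysis was possible because each group has 1 library. No replicate could be left out. Without read depth, the precision of the low values of ZEB1, ZEB2 and TCF4 is unknown.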
